A study of Saccharomyces cerevisiae with 5 samples.

Results

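In budding yeast, 224 internal upstream windows carried a γH2A peak, of 6354 internal windows and of 6697 coding sequences (CDS) in all. A window is the 1000 bp upstream of a CDS start, internal means that all of it lies more than 20000 bp from both ends of its R64 chromosome, and a member window shares at least 1 bp with a deposited peak. The members, 3.53% of the internal windows, were thus chosen by peak position, and whatever concerns the peaks themselves is description. The cells were wild-type BY4741, a MATa laboratory strain with deletions in *HIS3*, *LEU2*, *MET15* and *URA3*, growing in YPD, a rich glucose medium. Poly(A)+ RNAseq came from 1 culture given 1 mM CuSO4 for 4 hours and 1 culture in YPD without copper, and the γH2A ChIPseq peaks were taken as those of cells in YPD without copper. With 1 library for each condition no difference has a replicate check, and the samples shared the strain and the medium.

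γH2A is histone H2A phosphorylated on its C-terminal tail by the checkpoint kinases Mec1 and Tel1, and it spreads over the chromatin around broken DNA and stalled replication forks. In unperturbed yeast it is known from telomeres, the silent mating type loci, the ribosomal DNA, replication origins and a set of repressed genes. In haploid cells in rich medium the genes of meiosis are shut off in large part by Ume6, which binds the URS1 element, and those of spore formation by Sum1, which binds the middle sporulation element.

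Among the 10 gene lists searched, the 2 with the most members were meiotic chromosome genes and spore formation genes. Their promoters are shown first because these 2 groups carried different promoter elements. A search of the 250 bp before each start, on both strands of the R64 genome, found the URS1 core GGCGGC in 5 of the 11 meiotic chromosome members and in 0 of the 17 spore formation members. The core of the middle sporulation element, CACAAA, was in 1 of those 11 and in 16 of those 17. Among the 6130 internal windows without a peak, 3.74% of the 250 bp promoters held the first and 16.3% the second. The 5 URS1 sites are given with 20 bases on either side, 5′ to 3′ on the strand of the CDS, with the match to GGCGGC or its reverse complement in capitals.
CSM4, chrXVI:171268-171313, plus strand: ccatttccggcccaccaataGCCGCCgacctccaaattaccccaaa
HOP2, chrVII:435476-435521, plus strand: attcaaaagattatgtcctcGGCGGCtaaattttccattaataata
PCH2, chrII:600438-600483, plus strand: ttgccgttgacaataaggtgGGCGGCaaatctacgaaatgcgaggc
REC8, chrXVI:571537-571582, minus strand: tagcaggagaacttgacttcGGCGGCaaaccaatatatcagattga
SAE3, chrVIII:262637-262682, minus strand: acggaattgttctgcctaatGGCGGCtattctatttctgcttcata

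In 6 of the 16 spore formation promoters the site nearest to the start is shown in the same way, with the match to CACAAA or its reverse complement in capitals. In all 5 URS1 promoters and in 5 of these 6 it was the only match of its kind, and *SPR28* had 2.
LDS1, chrI:119694-119739, minus strand: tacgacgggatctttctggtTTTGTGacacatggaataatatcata
SPR28, chrIV:905124-905169, minus strand: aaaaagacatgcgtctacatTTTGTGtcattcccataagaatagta
SPS22, chrIII:42044-42089, plus strand: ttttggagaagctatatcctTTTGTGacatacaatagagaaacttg
SSP1, chrVIII:472629-472674, plus strand: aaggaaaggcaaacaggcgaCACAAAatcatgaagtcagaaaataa
PFS1, chrVIII:475472-475517, minus strand: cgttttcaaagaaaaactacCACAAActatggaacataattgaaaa
SPO19, chrXVI:304205-304250, plus strand: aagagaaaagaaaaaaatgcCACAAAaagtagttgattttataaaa

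The spore formation member without CACAAA was *OSW1*, an outer spore wall gene. The 247 bp between its start and that of *SEC63*, a subunit of the endoplasmic reticulum translocon transcribed the other way, is given on the strand of *OSW1* with a TATAAA in capitals. The peak here had 3.25-fold enrichment.
OSW1-SEC63, chrXV:807024-807270, plus strand: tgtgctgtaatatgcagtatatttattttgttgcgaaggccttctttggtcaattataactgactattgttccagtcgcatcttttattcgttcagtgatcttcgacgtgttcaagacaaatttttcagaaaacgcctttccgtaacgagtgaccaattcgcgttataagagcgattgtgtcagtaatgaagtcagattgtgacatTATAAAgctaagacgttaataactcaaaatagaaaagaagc

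These elements were not particular to the members of the lists. The URS1 core was in 17 of 34 internal meiotic chromosome genes without a peak in the window, and CACAAA in 28 of 40 such spore formation genes. Over all 224 members, 10.3% held the URS1 core, 27.2% held CACAAA and 48.2% held TATAAA, against 3.74%, 16.3% and 41.5% of the other internal promoters. A match of letters is a description of the sequence and does not show a bound site.

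Not every peak lay at such a gene. The most enriched of those that touched no RefSeq CDS, at 3.66-fold, lay between *TRM11*, a tRNA methyltransferase gene, and *HRP1*, an mRNA cleavage factor gene. Its summit, in capitals, is shown with 100 bp either side on the plus strand.
TRM11-HRP1, chrXV:86995-87195, plus strand: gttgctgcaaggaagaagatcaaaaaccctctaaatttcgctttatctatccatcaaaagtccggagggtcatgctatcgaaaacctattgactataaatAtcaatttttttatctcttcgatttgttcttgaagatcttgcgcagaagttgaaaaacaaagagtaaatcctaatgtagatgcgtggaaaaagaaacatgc

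The 224 windows lay on all 16 nuclear chromosomes, with 29 on chromosome XII, 25 on XV and 20 on IV, and 3 on IX. Of the CDS they serve, 169 (75.4%) had a RefSeq entry with a gene name, 38 (17.0%) an entry without one and 17 (7.59%) no entry, against 80.6%, 9.95% and 9.49% of the other internal CDS. Near-identical copies elsewhere in the genome covered at least 50% of 29 member CDS (12.9%), against 2.90% of the others. They include the *CUP1* repeat, ribosomal DNA and Ty element CDS, and the mating type genes. Where copies are identical, reads cannot be assigned to one of them, and how many reads of the other copies could be was not examined. A further limit is that 22 members (9.82%, against 8.87% of the others) had at least 50% of their length inside another CDS, so that their mRNA level can be that of the neighbour.

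The windows of *YOR387C*, *YAL064W* and *YJL218W* lay 20050, 20565 and 20972 bp from an end, while those of *DSF1*, *IMA3* and *IMA4*, at 18588, 18553 and 18536 bp, were the nearest left out that a peak reached. The smallest overlaps were 15 bp for *YPL185W*, 16 bp for *TAR1* and *YLR157W-E* and 18 bp for *GAS4*. Peaks ended 12 bp short of the window of *NRS1* and 16 bp short of that of *YIL059C*. The weakest peaks, at 2.00-fold for *TIM10* and *STP2* and 2.01-fold for *TDH2* and *MET3*, sat at the 2-fold limit that the authors applied. In the first 20000 bp inside the limit, 20 of 312 windows (6.41%) were members, against 3.38% further in.

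A set of 123 of the 240 peaks reached the member windows, 40 of them 1 window, 60 a pair of windows, 18 reaching 3, 4 reaching 4 and 1 reaching 5. That last peak spans 2592 bp at the mating type locus on chromosome III of R64, where the reference, unlike these MATa cells, is of an α strain. The 123 peaks had a median length of 911 bp (range 250 to 5453), a median pileup of 206 (quartiles 187 and 239.9) and a median enrichment of 2.34-fold (range 2.00 to 5.81). The 107 peaks with a summit within 20000 bp of an end were longer and higher, with medians of 2635 bp, 284 and 2.88-fold. Pileup is the height of extended reads at the summit and enrichment its ratio to the control level of the peak caller.

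The widest 5 peaks at member windows ran over *AQY3* (5453 bp, chrVI:17308-22760), *DAK2* (4177 bp), the *TAR1* stretch of the ribosomal DNA (3832 bp), *YDL007C-A* (3362 bp) and *EGT2* (3069 bp). The most enriched, at 5.81-fold with a pileup of 19724 over a control level of 3393, lay in the ribosomal DNA over *YLR154C-H*. Outside the ribosomal DNA the leaders were the peaks over *HXT14* (4.23-fold), a hexose transporter family gene, the mating type locus (3.90-fold), *AQY3* and the *TRM11*-*HRP1* gap (3.66-fold each), and the start of *HFM1* (3.49-fold). The 2 peaks of the *CUP1* repeat had 2.16-fold and 2.08-fold enrichment at pileups of 964 and 926, over a control level of 446 that was itself far above the lowest control level of 84.8, at which 90 of the 123 peaks stood. The paper gives this strain more *CUP1* copies than the reference genome holds, and whether this raised the control level was not tested. The read depth behind these values was not given with the peak list.

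Most summits of these peaks lay in CDS, though CDS took a smaller share of the bases under them than of the genome. Of the 123 summits, 75 (61.0%) fell inside a RefSeq CDS, and CDS made up 59.8% of the internal bases under these peaks, against 74.2% of the internal genome. Seen from the CDS that the window serves, a summit lay inside the window at 112 of 224 members. For the most enriched peak of each member, the summit was downstream of the start at 74, inside the CDS itself at 63, and beyond the far end of the window at 40. The median overlap of peak and window was 410.5 bp, and 8 windows lay wholly under peaks. The 112 members with a summit in the window had a median mRNA level of 7.63 with CuSO4 and 7.53 in YPD, and the other 112 had 3.97 and 3.68 on the log2 scale explained beside the mRNA results.

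**Figure D1:**
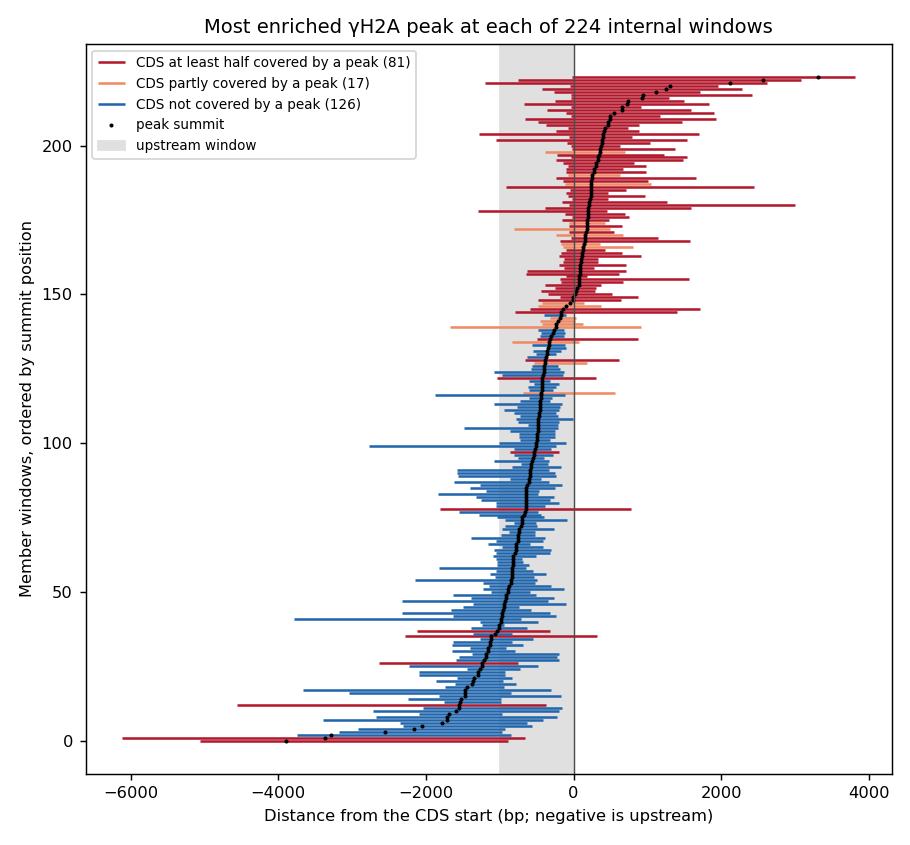
Extent (horizontal line) and summit (dot) of the most enriched γH2A peak at each of the 224 member windows, against distance in bp from the CDS start, with the window shaded. Colour gives how much of the CDS lay under a peak; 81 CDS were at least 50% covered, 17 partly covered and 126 not covered.

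By how much of the served CDS lay under a peak, the members fell into 81 with at least 50% of it covered, 17 with a smaller part and 126 with none. For 64 of these 126, the peak covered at least 50% of a neighbouring RefSeq CDS. For 41 it touched no RefSeq CDS, and for 21 it touched part of one. A member window was thus in many cases that of a CDS without a deposited peak, next to a CDS under one. Signal below the 2-fold limit of the peak list was not examined. The peak of *SPR28*, a sporulation septin gene, covered that CDS completely, shared 26 bp with its own window, and filled 806 bp of the window of *RAD9*, the checkpoint adaptor gene that follows it in tandem. *FAT1*, a fatty acid importer gene, was a member through a peak over *FIG1*, a mating gene upstream of it, whose own window no peak reached.

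Upstream neighbours were divergent at 124 members (55.4%), tandem at 82 (36.6%) and overlapping at 18 (8.04%), against 45.6%, 43.7% and 10.6% of the other internal windows. With RefSeq CDS alone the divergent share was 58.5% of 207 members against 51.2% of 5548 others. A peak between divergent starts reaches both windows, which raises this share by construction, so that it cannot be read as a preference of the mark. Divergent members had longer distances between starts, with a median of 730 bp (quartiles 341 and 1046) against 476 bp (272 and 748) in the others. For tandem members the gap to the upstream CDS had a median of 431 bp, against 382 bp.

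Member CDS had less mRNA than the other internal CDS in both libraries. Levels are the deposited log2 values, that is log2 of reads scaled to the larger library and divided by CDS length in kb, with 0 reads set to 0.9. In the CuSO4 library the median was 6.62 for members (quartiles 3.55 and 8.12) and 7.96 for the others (6.99 and 9.10), a difference of -1.33. In YPD it was 6.62 for members (3.27 and 7.99) and 7.93 for the others (6.99 and 9.08), a difference of -1.32. Under 20 reads were found for 74 of the 224 members with CuSO4 and for 80 in YPD (35.7%), where 7.71% and 8.15% of all internal CDS were that low. Among CDS with 10 or more reads over the libraries the difference of medians was smaller, at -0.63 with CuSO4 and -0.77 in YPD, and for members with a summit in the window it was -0.29 with CuSO4 and -0.38 in YPD. In bulk RNA, fewer cells with a transcript and less of it per cell cannot be told apart.

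The low levels were those of the covered CDS. In the CuSO4 library the median was 3.41 for the 81 members at least 50% covered, 5.24 for the 17 partly covered and 7.81 for the 126 not covered. In YPD these medians were 2.97, 4.85 and 7.72, so that the uncovered members stood near the 7.93 of the internal CDS without a peak in the window. Of the 81 covered members, 58 had under 20 reads with CuSO4 and 63 in YPD, while 10 of the 126 uncovered members did so with CuSO4 and 11 in YPD. The difference between covered and uncovered members was -4.40 with CuSO4 and -4.75 in YPD, and -3.94 and -3.96 among CDS whose reads in the libraries summed to 10 or more. Peaks and mRNA come from separate libraries, and whether the mark or the low transcription comes first cannot be told from them.

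**Figure D2:**
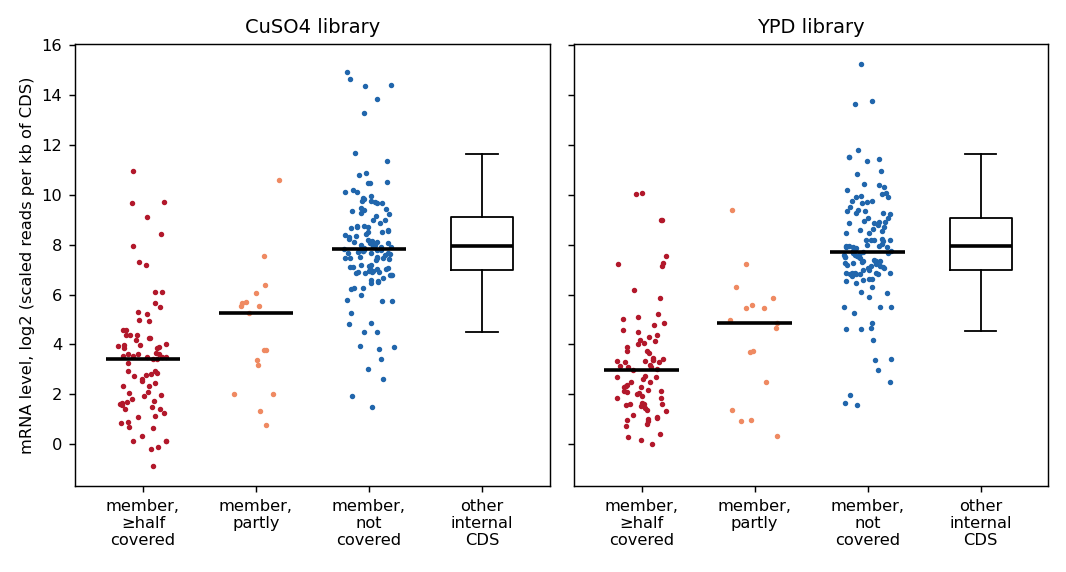
mRNA level (log2 of scaled reads per kb of CDS) of member CDS by how much of the CDS lay under a γH2A peak, as points with a bar at the median, beside all other internal CDS (box, quartiles; whiskers, 5th to 95th percentile), in the CuSO4 library (left) and in YPD (right). The covered members have medians of 3.41 and 2.97, the uncovered ones of 7.81 and 7.72.

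Among the 81 covered members, 4 stood above the median of the other internal CDS in YPD. They were *TAR1* (746 reads in CuSO4 and 388 in YPD) and *YLR154W-F* (116 and 69 in the same libraries), both in the ribosomal DNA and with near-identical copies, *EGT2*, a cell separation gene (2594 reads in CuSO4 and 3205 in YPD), and *HO*, the mating type switching endonuclease gene (986 reads in CuSO4 and 868 in YPD). The peak covered 96.2% of *EGT2* and 96.3% of *HO*, so a covered CDS was not always a silent one.

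Divergent pairs that shared a peak, made of members already counted above, showed the same contrast within single loci. There were 55 such pairs of RefSeq CDS, and *MSH4* and *YLR157W-E* were each in 2 of them, paired with overlapping Ty CDS. Reads of Ty CDS can come from other copies. In 31 pairs the covered share of the 2 CDS differed by at least 25 percentage points. The more covered CDS had the lower level in 30 of these 31 pairs with CuSO4, with a median difference of -5.09 on the log2 scale, and in 28 of 31 in YPD, with -5.68. In the 24 other pairs the covered shares were closer, and in many of them equal, mostly with no peak in either CDS. Coverage then does not set which CDS comes first, so no direction is read from these pairs and they are no control.

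*REC8*, the meiotic cohesin subunit, lay 92.2% under a peak and had 8 reads in CuSO4 and 5 in YPD. Its divergent partner *HAA1*, an activator of weak acid tolerance genes, had no peak in the CDS and 573 reads in CuSO4 and 586 in YPD. *OSW1* (95.5% covered) had 0 reads in either library, while *SEC63* had 1732 in CuSO4 and 1643 in YPD. A count of 0 here allows up to 3 reads. *CRC1*, the mitochondrial carnitine carrier gene (89.0% covered), had 5 reads in CuSO4 and 4 in YPD, against 525 and 591 for *RAS1* in the same order of libraries. *MAM1*, a monopolin subunit gene (60.3% covered), had 6 and 8 reads, against 1005 and 973 for the nucleoporin gene *NUP157*. The formaldehyde dehydrogenase gene *SFA1* was a member in this way: its partner *UGX2* was 91.2% covered and had 34 reads in CuSO4 and 21 in YPD, while *SFA1* had 817 in CuSO4 and 752 in YPD.

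Exceptions were few among these pairs. *EGT2* exceeded its partner *MDJ2*, a mitochondrial DnaJ protein gene with 40 reads in CuSO4 and 42 in YPD. *CDA2*, a spore wall chitin deacetylase gene, was itself nearly silent (3 reads in CuSO4 and 4 in YPD) beside *DPA10* with 1 read in either library. In level per kb *CDA2* was an exception in YPD only, at 2.14 against 1.97, while with CuSO4 it had 1.68 against 1.92. *MSH4*, a meiotic crossover gene (36 reads in CuSO4 and 33 in YPD), was close to the Ty CDS *YFL002W-A* in level per kb, at 3.77 against 3.80 with CuSO4 and 3.70 against 3.42 in YPD.

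**Figure D3:**
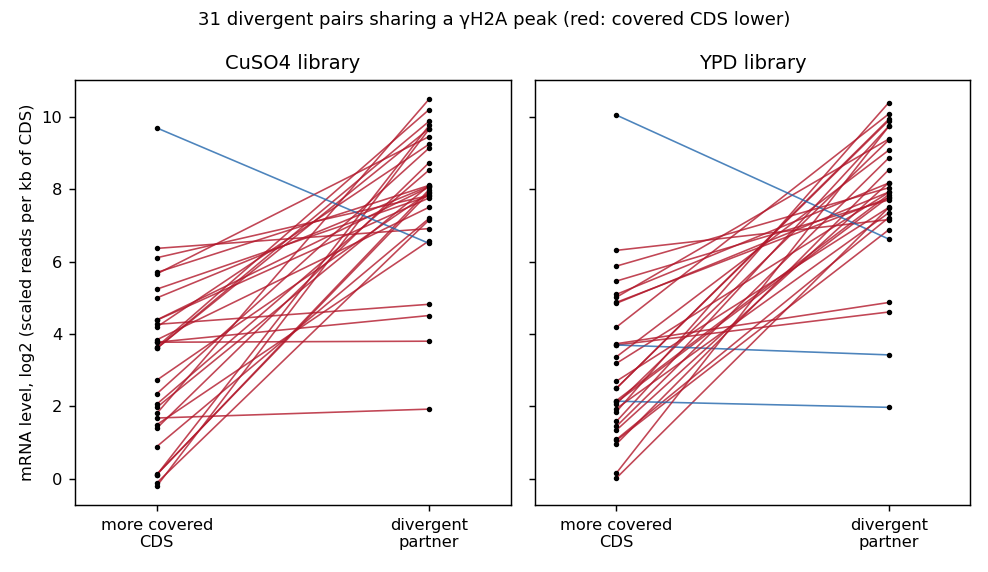
mRNA level (log2 of scaled reads per kb of CDS) of the 31 divergent pairs that shared a γH2A peak and differed by at least 25 percentage points in how much of each CDS it covered, in the CuSO4 library (left) and in YPD (right). Lines join the more covered CDS to its partner; red lines, where the covered CDS was lower, make up 30 of 31 pairs with CuSO4 and 28 of 31 in YPD.

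The gene lists held 71 of the 224 members. Spore formation genes were most frequent, with 17 of 57 internal list genes (29.8%) having a member window, followed by meiotic chromosome genes with 11 of 45 (24.4%), where 3.53% of all internal windows were members. Counting peaks in the CDS itself, the same lists had 18 of 57 and 11 of 45, where 1.89% of all 6354 internal CDS had a peak in the body. A summit lay inside the window for 5 of the 17 and 3 of the 11. By that measure non-fermentable carbon genes led, with 7 of 53, followed by stress and chaperone genes with 6 of 55. No cytosolic ribosomal protein gene of 138 was a member.

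The meiotic chromosome members span pairing, synapsis and segregation. They were *SAE3* and *HOP2*, which act with the Dmc1 recombinase, *MSH4* and the helicase gene *HFM1*, which act in crossover formation, *GMC2* and *ECM11* of the synaptonemal complex, the checkpoint ATPase gene *PCH2*, *CSM4*, which acts in telomere-led chromosome movement, *REC8*, *MAM1* and *AMA1*, an activator of the meiotic anaphase-promoting complex. Levels were low in 8 of the 11, which had under 20 reads in YPD. The median level of the members was 3.41 with CuSO4 and 3.36 in YPD. List genes that were not members had 5.59 and 5.62, also below the other internal CDS. *SAE3* had 2 reads in CuSO4 and 3 in YPD, *HOP2* 7 and 10, *GMC2* 5 and 4, *ECM11* 14 and 9, and *CSM4* 5 and 8, in the same order of libraries. The highest were *HFM1*, with 186 reads in CuSO4 and 160 in YPD, and *PCH2*, with 94 and 77, and both were covered only near their 5′ ends, over 21.7% and 35.0% of the CDS.

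Spore formation members covered the prospore membrane, spindle pole, wall and lipid droplets. Of the 17, 12 had under 20 reads in YPD. Over all 57 internal genes of this list, 16 were at least 50% covered, among them the non-members *SPS1* and *SPR3*. Of all 6354 internal CDS, 93 were covered to that extent. *LDS1*, which encodes a lipid droplet protein of spore wall assembly, had 0 reads in CuSO4 and 2 in YPD, and *PES4*, a meiotic RNA-binding protein gene, had 1 in CuSO4 and 4 in YPD. The spore wall gene *SPS22* had 3 and 7 reads, *PFS1* 5 and 2, *SPR2* 3 and 0 and *SPO19* 2 and 2, again with CuSO4 before YPD. *SSP1*, whose product rims the prospore membrane (21 reads in CuSO4 and 22 in YPD), and *SPO74*, a spindle pole body component gene (26 and 41), were somewhat higher. The highest was *SPO14*, a phospholipase D gene with 586 reads in CuSO4 and 611 in YPD, whose CDS no peak touched. *SPO75* had 215 reads in CuSO4 and 200 in YPD, at 26.7% coverage. The window of *SPO14* was reached by a peak over *DAL80*. Over the 28 members of both lists the median level was 3.29 with CuSO4 and 3.16 in YPD, and without them the remaining members were still below the other internal CDS by -0.91 with CuSO4 and -0.85 in YPD.

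**Figure D4:**
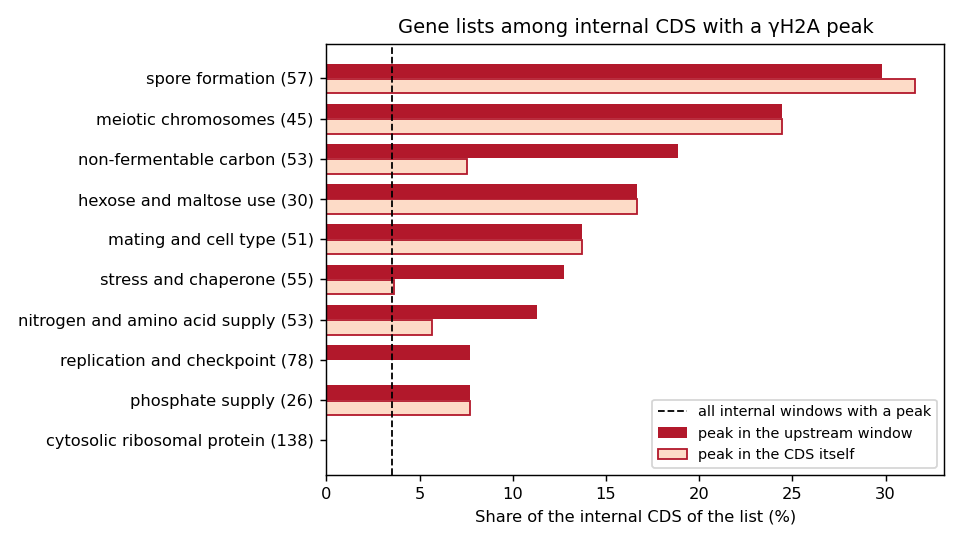
Share of the internal CDS of each gene list (number in brackets) with a γH2A peak in the upstream window (dark bars) or in the CDS itself (pale bars), with the share of all internal windows that were members (3.53%) as a dashed line. Spore formation and meiotic chromosome genes lead, at 29.8% and 24.4%, and the cytosolic ribosomal protein genes are at 0.

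Genes for the use of carbon sources came next. Of 53 internal genes for non-fermentable carbon, 10 (18.9%) were members, 4 of the 53 had a peak in the CDS, and 3 of the 10 had under 20 reads in YPD. *SIP4*, an activator of gluconeogenic genes, had 7 reads in CuSO4 and 5 in YPD, at 74.0% coverage. *RGI2*, a respiratory growth gene (94.1% covered), had 8 in CuSO4 and 2 in YPD. The related activator *CAT8* had 97 in CuSO4 and 106 in YPD, under an intergenic peak of 522 bp that it shared with *GPI12*. *CAT2*, a carnitine acetyltransferase gene, had 76 and 56, and *FOX2*, of peroxisomal fatty acid oxidation, 150 and 118. Of 30 internal hexose and maltose genes, 5 (16.7%) were members, all with at least 50% of the CDS covered: the transporter genes *HXT10*, *HXT11* and *HXT14*, the isomaltase gene *IMA2* and the minor pyruvate decarboxylase gene *PDC6*. *HXT10* had 5 reads in either library and *HXT14* had 3 in CuSO4 and 6 in YPD. *HXT11* and *IMA2* have near-identical copies.

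Mating and cell type genes gave 7 members of 51 (13.7%), and 4 of the 7 are genes of α cells, which these cells are not. *STE3*, the a-factor receptor gene of α cells, had 7 reads in CuSO4 and 11 in YPD and lay wholly under a 1742 bp peak. *MF(ALPHA)1*, the main α-factor gene, had 0 reads in either library under a 1264 bp peak. The a-cell receptor gene *STE2*, no member, had 5320 reads in CuSO4 and 4433 in YPD, and none of the 7 a-specific markers was a member. Of the 4 α-specific markers, *STE3* and *MF(ALPHA)1* were members, while *MF(ALPHA)2* (30 reads in CuSO4 and 46 in YPD) and *SAG1*, the α-agglutinin gene (207 in CuSO4 and 190 in YPD), had reads and no peak in the window or the CDS. The peak over *MATALPHA1* and *MATALPHA2* lies in the R64 sequence of the mating type locus, which is that of an α strain. Both CDS have copies at the silent loci. These cells are MATa, so signal assigned to the 2 CDS can come from a silent copy. Whether the cells carry γH2A at the mating type locus itself cannot be told from this peak. Of the genes that BY4741 lacks, *LEU2*, *MET17* (also named *MET15*) and *URA3* had 0 reads in both libraries, while *HIS3*, of which the his3Δ1 allele lacks only an internal stretch, had 309 in CuSO4 and 291 in YPD.

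The nitrogen, stress and replication lists were represented mainly by uncovered, expressed CDS, and the phosphate list was not. Nitrogen and amino acid genes gave 6 members of 53 (11.3%), of which *DAL80*, a repressor of nitrogen catabolic genes, was covered and had 1 read in CuSO4 and 2 in YPD. The other covered gene of that list among its internal CDS was not a member. Stress and chaperone genes gave 7 of 55 (12.7%), of which 2 had any peak in the CDS and 0 were at least 50% covered. Among them *SGT2*, a co-chaperone of tail-anchored proteins, had 2770 reads in CuSO4 and 2625 in YPD, and the mitochondrial peroxiredoxin gene *PRX1* had 681 and 552. Replication and checkpoint genes gave 6 of 78 (7.69%), with 0 of 78 having a peak in the CDS. They were *ORC3*, *DPB11*, *POL31*, *RAD9*, *LCD1* and *RAD2*, and 4 of them shared their peak with a neighbour that lay at least partly under it: *SPO75* for *ORC3*, *SIP4* for *DPB11*, *LSO1* for *POL31* and *SPR28* for *RAD9*. Phosphate supply genes gave 2 of 26 (7.69%), *PHO92*, an RNA-binding protein gene of meiosis, and *PHM7*, and both had under 20 reads in YPD. Peaks covered 77.0% of *PHO92* and 22.3% of *PHM7*.

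Some peaks marked no gene body. The 29 peaks that touched no RefSeq CDS were shorter than the 94 others, with a median of 522 bp against 1100 bp, and had a median enrichment of 2.24-fold against 2.39-fold. They served 45 members with a median level of 7.57 with CuSO4 and 7.45 in YPD. Annotated replication origins (ARS) overlapped 6 of these 29 and 12 of the 94, and long terminal repeats of Ty elements overlapped 5 of each. No tRNA gene was overlapped by any of the 240 peaks, and one lay within 500 bp of 17 of the 123 peaks. These counts by peak have no matched background. Of the internal bases, tRNA genes took 0.191%, ARS 0.723% and long terminal repeats 0.933%. Counted by window, an ARS was in 23 members (10.3%, against 3.75% of the other internal windows), a tRNA gene in 24 (10.7%, against 4.01%) and a long terminal repeat in 22 (9.82%, against 3.92%). Windows that share a peak share these features as well. The member windows had a median G+C content of 35.95%, against 37.9% in the others.

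The 10 most abundant member mRNAs in YPD came from uncovered CDS, while with CuSO4 the wholly covered *TAR1* (10.96) stood above *AUA1* (10.89) and *AAT2* (10.78). In YPD the 10 were *TDH2*, *YLL044W*, *YDL228C*, *YHR054W-A*, *CUP1-2*, *TIM10*, *CUP1-1*, *SGT2*, *AUA1* and *AAT2*. *TDH2*, a glyceraldehyde-3-phosphate dehydrogenase gene with near-identical copies, had a level of 14.94 with CuSO4 and 15.25 in YPD, and its peak, shared with *MET3*, was 355 bp long with its summit 819 bp upstream. *YLL044W*, *YDL228C*, *YHR054W-A*, both *CUP1* CDS and *AUA1* each have at least 50% of their length inside another CDS. *TIM10*, a mitochondrial intermembrane chaperone gene, had 920 reads in CuSO4 and 792 in YPD, and *AAT2*, the cytosolic aspartate aminotransferase gene, had 2210 and 2229.

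With copper, 8 members were at least 2-fold higher and 0 at least 2-fold lower, of 153 members that reached 20 reads in one library. The higher ones were 5.23% of those 153. Over all 6078 CDS with that many reads, 0.526% were higher and 0.658% lower, and over the 5740 other internal CDS 0.261% and 0.453%. The *CUP1* repeat, which encodes the copper metallothionein, supplied 3 of the 8. *CUP1-1* had 4042 reads in CuSO4 and 496 in YPD, a log2 change of 2.98 (95% Clopper-Pearson interval 2.84 to 3.11), *CUP1-2* had 3976 and 526 (2.87), and *YHR054W-A*, which lies opposite a *CUP1* copy, had 5060 and 667. Reads of these copies cannot be told apart, and the intervals cover counting error only.

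Outside the repeat, *HSP12*, a membrane-stabilising stress protein gene, had 505 reads in CuSO4 and 212 in YPD, a change of 1.20 (0.97 to 1.44). *PRM6*, a pheromone-regulated membrane protein gene, had 73 in CuSO4 and 30 in YPD, a change of 1.23 (0.60 to 1.90). *OSW2*, an outer spore wall gene, had 24 in CuSO4 and 11 in YPD, and its interval of -0.01 to 2.25 includes no change. *MATALPHA2* had 25 in CuSO4 and 6 in YPD (2.01, interval 0.69 to 3.58), and *YLR154W-E* of the ribosomal DNA had 70 and 30 (1.17, interval 0.54 to 1.84). Both have near-identical copies. Of the 8, 5 in all have such copies, and *HSP12*, *PRM6* and *OSW2* are those that do not.

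The median change of the members was near that of the other internal CDS, while their upper quartile was higher. Among CDS whose reads in the libraries summed to 10 or more, 179 members had a median change of 0.05 (quartiles -0.10 and 0.29), against 0.01 (-0.10 and 0.13) for 5947 other internal CDS. *SFA1* differed by 0.07. *UGX2* differed by 0.65 on few reads, and its interval reached down to -0.18. No γH2A value with copper is set beside these changes.

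**Figure D5:**
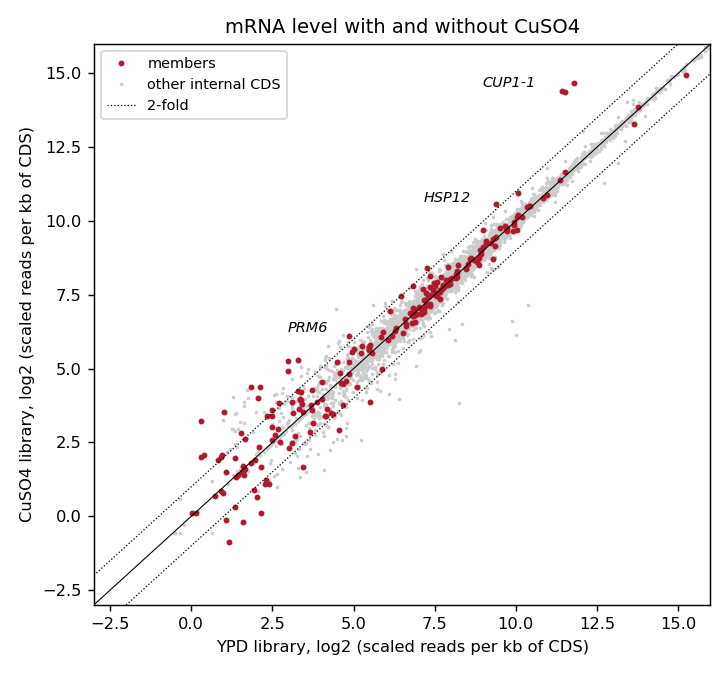
mRNA level (log2 of scaled reads per kb of CDS) in the CuSO4 library against the YPD library for the member CDS (red) and the other internal CDS (grey), 1 library each. Dotted lines mark a 2-fold difference; the *CUP1* CDS stand 2.87 to 2.98 above the diagonal, and points at the lower left rest on few reads.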

How the data were processed

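The authors mapped the ChIP reads with Bowtie2 2.2.5 and the RNA reads with HISAT2 2.0.5 to R64, called peaks with MACS2 and kept those of at least 2-fold enrichment. The deposited peak list gives pileup (a signal), fold enrichment (a ratio to the control level) and -log10 p values. It is labelled for the YPD ChIP, the CuSO4 ChIP and the input, and its peaks were treated as those of YPD cells. The CuSO4 ChIP is not analysed here. The deposited mRNA values are log2 of reads scaled to the larger library per kb of CDS, with 0 reads at 0.9, as the values show. Undoing this gave whole reads for 99.9% of values in each library (within 0.02), 5749810 on CDS with CuSO4 and 5572698 in YPD. Whether counting used strand is not given in the sources used here. RefSeq names matched 6014 CDS.

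Overlaps, layouts and coverage were computed in Python 3.11.15 with pandas 2.3.3, intervals with scipy 1.17.1 (95% Clopper-Pearson, counting error only), and near-identical copies with BLAST 2.17.0+ (at least 95% identity over at least 50% of the CDS). The scripts were tested on simulated data. Copper changes were called at 2-fold where one library reached 20 reads. Named genes were list members, the leading peaks, levels and changes, the *CUP1* and *SFA1* loci, those nearest each threshold, and partners sharing a peak; *EGT2*, *HO*, *AQY3*, *TRM11*, *HRP1* and *SPO14* were also chosen for their values. Members and lists were chosen with earlier results of these data known, and the split by coverage and the motif searches after the data were seen.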

Additional observations from a re-analysis of the deposited data

How the results depend on the processing

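No paired analysis was possible because CuSO4 and YPD had 1 library apiece. Of 69 recomputed values over 23 results, 44 stayed within their interval or within 1.5 times the count, and 0 changed sign. Requiring the summit inside the window gave 112 member windows and a divergent share of 63.4%. The mRNA differences were then -0.29 with CuSO4 and -0.38 in YPD, and 1.76% of all internal windows held a summit. List shares fell to 6.67% for meiotic chromosomes, 8.77% for spore formation and 1.96% for mating and cell type. They fell to 0 for hexose and maltose use and for phosphate supply. Non-fermentable carbon genes then had the largest share, 13.2%, followed by stress and chaperone genes at 10.9%. Nitrogen and amino acid genes were at 5.66% and replication and checkpoint genes at 5.13%. Peaks of at least 3-fold enrichment left 27 windows, a divergent share of 66.7%, and medians of 1112 bp, a pileup of 278 and 3.25-fold. Where the libraries' reads summed to 10 or more, the mRNA difference from other internal CDS was -0.63 with CuSO4 and -0.77 in YPD, and that of covered from uncovered members -3.94 and -3.96 in the same order. Without division by CDS length the covered members were lower by -5.87 with CuSO4 and -6.16 in YPD. Members higher with copper numbered 20 of 153 at 1.5-fold (2.40% of all CDS), 4 of 153 at 4-fold (0.165%), 3 of 133 without near-identical copies (0.172%) and 5 of 139 without CDS that overlap another (0.378%), and 4 of 153 were lower at 1.5-fold (1.53%). Leaving out overlapping CDS and all settings of the coverage comparison were chosen after the data were seen. Except where the setting itself removes CDS or peaks, the cause of these shifts was not tested. No value has a replicate error, the depth of the ChIP libraries is unknown, and changes of CDS with few reads were not detectable.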

Other observations

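Some internal genes of the lists had a peak in the CDS but none in the upstream window, and so were not among the 224. *SPS1*, a sporulation kinase gene, lay 93.5% under a peak with 6 reads in CuSO4 and 17 in YPD, and *SPR3*, a sporulation septin gene, 65.6% with 12 reads in CuSO4 and 4 in YPD. *ALP1*, an arginine transporter gene, was 92.3% covered with 28 reads in CuSO4 and 33 in YPD. *FIG1*, nearly all of it under a peak, had 126 reads in CuSO4 and 54 in YPD. Over the 12 internal CDS at least 50% covered without a peak in the window, the median level was 4.05 with CuSO4 and 3.83 in YPD, against 3.41 and 2.97 for the 81 covered members, in the same order of libraries.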
